A study of Rattus norvegicus with 15 samples.

Results

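Phospholipid synthesis and remodelling was followed through 10 genes of the deposited rat liver table. They were the kinases Chka, Chkb and Etnk2, the cytidylyl-transferases Pcyt1a and Pcyt2, and the final transferases Chpt1 and Cept1. The others were the phosphoethanolamine-degrading enzyme Etnppl, the acyltransferase Lpcat3 and the phospholipase A2 Pla2g12a. The genes were chosen by name, each name occurred once, and they are 10 of 26403 genes with usable values. The study sequenced RNA from livers of Wistar rats that had lost weight, kept it off, and were taken 24 hours into refeeding, on the first day of regain. Of the 15 libraries, 5 came from rats that had stayed sedentary and were refed ad libitum (sedentary), 5 from rats that had run on a treadmill during weight loss and maintenance and were refed ad libitum (exercised), and 5 from sedentary rats refed an energy gap-matched diet (gap-matched). The labels do not define that diet, give no age or sex, and do not say that each library came from its own animal, so the p-values speak for the scatter among libraries, which may be technical. All groups shared the weight loss, the maintenance period and the refeeding, and no library came from a rat that had not dieted.

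Phosphatidylcholine and phosphatidylethanolamine are the main membrane phospholipids of the hepatocyte, and phosphatidylcholine also coats the lipoproteins and enters the bile that the liver secretes. Both are built by the Kennedy pathway, in which a kinase phosphorylates choline or ethanolamine, a cytidylyl-transferase makes the CDP-activated head group, and a transferase joins it to diacylglycerol. In the Lands cycle, a phospholipase A2 then removes an acyl chain and an acyltransferase such as Lpcat3 puts another in its place.

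Pla2g12a was higher and Lpcat3 lower in exercised than in sedentary rats, at 13.8 against 4.69 and 51.9 against 77.9 FPKM. Etnppl was higher in exercised than in gap-matched rats. Chka, Chkb, Etnk2, Pcyt1a and Pcyt2 did not pass the test in any comparison. Chpt1 and Cept1 had higher means in exercised and in gap-matched than in sedentary rats without passing. Of these 3 calls, that of Pla2g12a held whichever library was left out, and those of Lpcat3 and Etnppl did not.

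For Pla2g12a and Lpcat3, which passed in opposite directions, and for Pcyt1a, the promoter bases before the RefSeq gene start are shown, the latter as the member whose window held a sterol regulatory element. The choice of these 3 was made after their values were seen. Each window is the 250 bases before the start on build GRCr8, which is not the build of the deposited values, written 5′ to 3′ on the strand of the gene. Capitals mark letters found by a search of both strands for 8 motifs: the sterol regulatory element TCACNCCAC, the E-box CACGTG, the FOXO element GTAAACA, the LXR repeat (AGGTCA repeated after any 4 bases), the PPAR repeat (AGGTCA repeated after any 1 base), the glucocorticoid response element (AGAACA and TGTTCT with any 3 bases between), the CCAAT box CCAAT and the GC box GGGCGG.
Pla2g12a, chr2:221110472-221110721, plus strand: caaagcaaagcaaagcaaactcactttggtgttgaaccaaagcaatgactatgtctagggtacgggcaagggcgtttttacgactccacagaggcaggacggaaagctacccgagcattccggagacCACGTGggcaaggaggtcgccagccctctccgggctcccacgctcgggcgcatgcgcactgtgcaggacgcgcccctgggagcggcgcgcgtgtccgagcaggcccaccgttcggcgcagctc
Lpcat3, chr4:159154440-159154689, plus strand: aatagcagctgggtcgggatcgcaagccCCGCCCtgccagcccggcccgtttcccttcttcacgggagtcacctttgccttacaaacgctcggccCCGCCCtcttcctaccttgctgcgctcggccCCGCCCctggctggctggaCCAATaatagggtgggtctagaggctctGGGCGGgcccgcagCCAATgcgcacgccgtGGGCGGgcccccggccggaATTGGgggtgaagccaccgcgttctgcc
Pcyt1a, chr11:81862398-81862647, minus strand: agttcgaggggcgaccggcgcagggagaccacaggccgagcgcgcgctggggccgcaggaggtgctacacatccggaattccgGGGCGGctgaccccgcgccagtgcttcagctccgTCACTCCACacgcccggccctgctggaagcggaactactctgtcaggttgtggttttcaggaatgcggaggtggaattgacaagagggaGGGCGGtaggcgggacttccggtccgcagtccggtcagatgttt
The E-box of Pla2g12a began 123 bases before the start, and 5.59% of 33465 RefSeq promoter windows of the same length held that motif. The sterol element of Pcyt1a began 133 bases before the start, and 0.974% of windows held one. Lpcat3 had 5 GC boxes and 3 CCAAT boxes, motifs held by 30.5% and 34% of windows. All 10 genes had a promoter window, 3 of them for Etnppl. A GC box stood in a window of 9 of the 10 genes, Pla2g12a being the exception, and a CCAAT box in those of 5. The FOXO, LXR, PPAR and glucocorticoid letters, held by 3.21%, 0.00299%, 0.0508% and 0.012% of windows, were in no window of the 10 genes. A match or its absence in these windows says nothing of binding.

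Values are FPKM, in which the fragment number of a gene is divided by its length and by the size of the library. Absolute depth is unknown, and relative depth, estimated from the single-fragment steps of low genes, ran from 0.678 to 1 of that of sedentary library 1. The number of genes at 1 FPKM or above ran from 11008 to 11365 per library. The 7 hepatocyte markers with usable values summed to between 39337 and 51702 FPKM in every library, and 1 of them passed in a comparison, whereas the adipocyte markers Adipoq, Plin1 and Lep had means of 0.159, 0.0271 and 0.0117 FPKM. Cfd, the fourth marker on that list and the 1 that could be tested, had a mean of 20.4 FPKM and passed in at least 1 comparison, and the list summed to 13.7 to 19.9, 19.9 to 27.7 and 18.1 to 25.5 FPKM for sedentary, exercised and gap-matched libraries. Of the 6 tested Kupffer cell markers 0 passed in any comparison (limma adjusted p under 0.05), but their list summed to 209 to 382, 328 to 465 and 313 to 454 FPKM for sedentary, exercised and gap-matched libraries. Vsig4, also on that list, was listed at 0. The erythroid markers summed to 88.6 to 296, 149 to 474 and 239 to 579 FPKM in the same order, with 0 of 1 tested passing. The part of these levels in the results was not tested. In bulk liver, fewer cells of a type and less RNA per cell cannot be told apart.

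**Figure D1:**
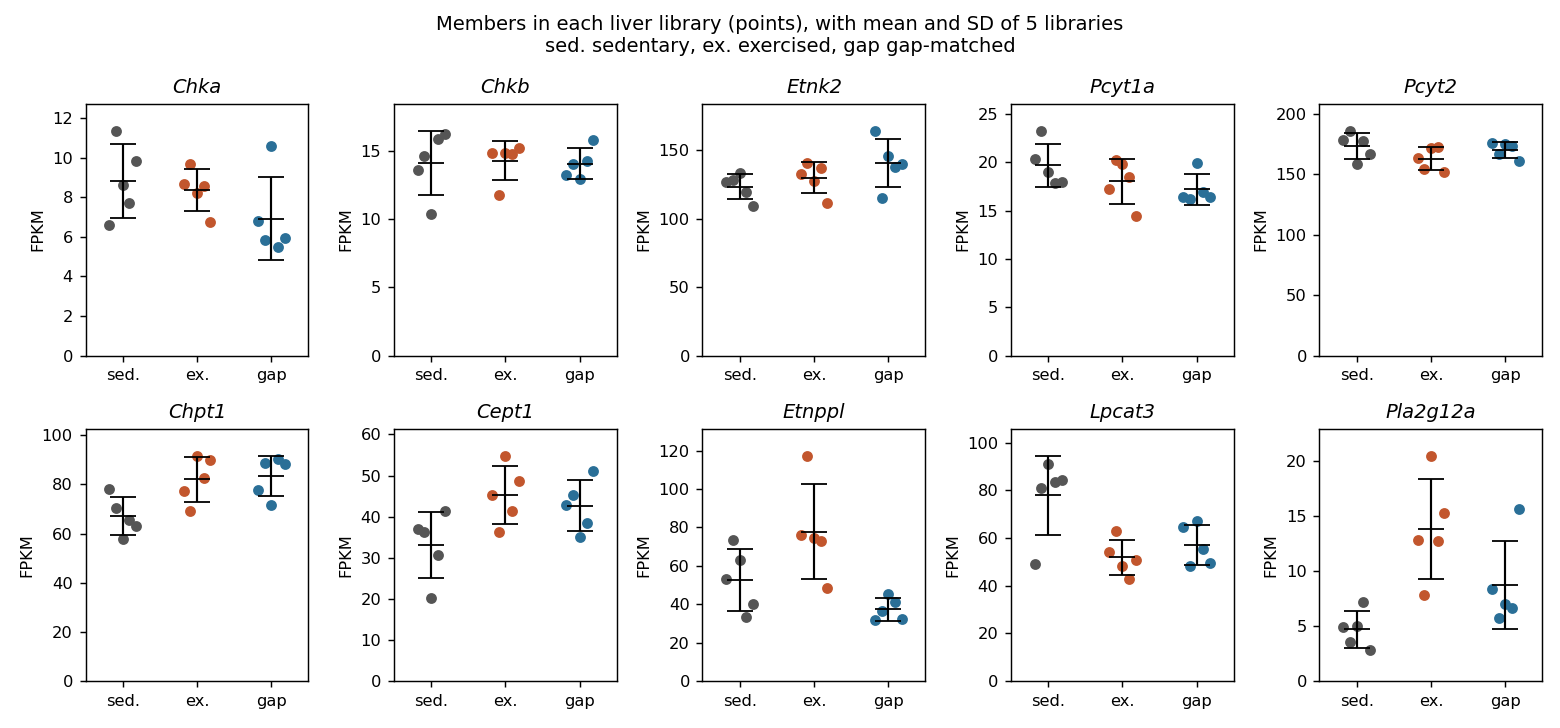
FPKM of each of the 10 genes (vertical axes, from 0) in the 5 libraries of each group (points), with the mean and SD in black. All 5 exercised libraries lie above the sedentary libraries for Pla2g12a and above the gap-matched libraries for Etnppl, and sedentary library 1 stands apart for Lpcat3.

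The levels of the 10 genes spanned a wide range. FPKM is scaled by gene length, so the comparison between genes is approximate, and fragments shared with overlapping genes could alter it. In sedentary livers Pcyt2 was the most abundant, at 174 ± 10.9 FPKM (SD, n = 5), above 94.6% of the tested genes. Etnk2 followed at 123 ± 9.19 FPKM, then Lpcat3 at 77.9 ± 16.5, Chpt1 at 67.0 ± 7.74, Etnppl at 52.6 ± 16.4 and Cept1 at 33.1 ± 8.09 FPKM. Pcyt1a, at 19.7 ± 2.24, Chkb, at 14.1 ± 2.35, Chka, at 8.83 ± 1.86, and Pla2g12a, at 4.69 ± 1.68 FPKM, were the lowest. The ethanolamine branch had its pace-setting enzyme at a higher transcript level than the choline branch, and the ratio of Pcyt2 to Pcyt1a within a library was 8.87 ± 0.772, 9.12 ± 1.08 and 9.95 ± 0.737 for sedentary, exercised and gap-matched livers (SD, n = 5 each). In the sedentary order, the library ranges of neighbours overlapped from Lpcat3 through Chpt1, Etnppl and Cept1 to Pcyt1a, and from Chkb through Chka to Pla2g12a. Those of Pcyt1a and Chkb did not overlap. Pcyt2 led Etnk2 without overlap in sedentary and exercised but not in gap-matched libraries. Within a library the ratio of Chkb to Chka was 1.65 ± 0.407, 1.74 ± 0.365 and 2.17 ± 0.598, and that of Chpt1 to Cept1 was 2.11 ± 0.475, 1.82 ± 0.138 and 1.98 ± 0.241, in sedentary, exercised and gap-matched livers (SD, n = 5 each). In exercised livers Pla2g12a ranked above Chka, at 13.8 ± 4.58 against 8.38 ± 1.06 FPKM, with overlapping ranges.

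The spread between libraries of a group also differed among the genes. Pcyt2 varied least, with a coefficient of variation of 3.83% to 6.27%, and Pla2g12a most, with 33.1% to 46.2%. Etnppl varied by 31.1%, 31.9% and 15.7% among sedentary, exercised and gap-matched libraries.

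Differences were tested on log2(FPKM + 1) with limma over the 11216 genes whose mean reached 1 FPKM, all 10 members among them, and each is given with its standard error. Fold differences of genes near 1 FPKM are understated on this scale. A gene passed at a Benjamini-Hochberg adjusted p under 0.05 over all tested genes. The 3 comparisons share groups and are not independent of each other. The first comparison, of exercised minus sedentary libraries, concerns earlier treadmill running. Food was ad libitum in both of these groups, and the amounts eaten during refeeding are not given in the sources used here. Whether a difference goes with the running or with the amount eaten was not tested. Of the 10 members 1 rose and 1 fell, where 5.78% of all tested genes passed, 2.51% as higher and 3.26% as lower. The members' median difference was 0.05, beside 0.01 over all tested genes.

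Pla2g12a encodes a secreted phospholipase A2, which releases a fatty acid and a lysophospholipid. It stood at 4.91, 3.52, 5.03, 7.17 and 2.81 FPKM in sedentary libraries 1 to 5 and at 12.9, 7.86, 20.5, 12.7 and 15.3 FPKM in exercised libraries 1 to 5. In gap-matched libraries 1 to 5 it stood at 8.41, 5.73, 7.02, 6.67 and 15.7 FPKM. Every exercised library lay above every sedentary one. Gap-matched libraries 2, 3 and 4 lay within the sedentary range, and libraries 1 and 5 within the exercised range. Pla2g12a rose by 1.37 ± 0.26 in exercised against sedentary rats (limma adjusted p = 0.0075), the only member whose libraries did not overlap, where 6.81% of all tested genes did not. The adjusted p lay between 0.00526 and 0.0259 in the 10 fits that left out 1 of these libraries. Its difference of 0.74 ± 0.26 between gap-matched and sedentary rats did not pass (limma adjusted p = 0.147, 95% confidence interval 0.18 to 1.30). Nor did that of 0.64 ± 0.26 between exercised and gap-matched rats (limma adjusted p = 0.243).

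Lpcat3 encodes the lysophospholipid acyltransferase that places polyunsaturated chains in phosphatidylcholine and phosphatidylethanolamine. Sedentary libraries 1 to 5 held 49.1, 81.1, 91.2, 83.5 and 84.6 FPKM, exercised libraries 54.0, 63.1, 48.5, 43.0 and 50.8 FPKM, and gap-matched libraries 64.6, 48.3, 67.1, 55.5 and 49.7 FPKM. Sedentary library 1 lay among the exercised and gap-matched libraries, and the other 4 sedentary libraries lay above all of them. Lpcat3 fell by 0.56 ± 0.16 in exercised against sedentary rats (limma adjusted p = 0.0459). Without sedentary library 1 it fell by 0.71 ± 0.12 (limma adjusted p = 0.00707), and it also passed without exercised library 2 (0.0391). Without any other of the 10 libraries the call was lost, at an adjusted p of 0.0719 to 0.108. Other settings ended the call in 7 of 11 cases, among them the fit of only these 2 groups (0.0784) and scaling to the same sum (0.0592). The difference of −0.42 ± 0.16 between gap-matched and sedentary rats did not pass (limma adjusted p = 0.16) but passed without sedentary library 1, at −0.58 (0.0249). Between exercised and gap-matched rats the difference was −0.13 ± 0.16 (95% confidence interval −0.46 to 0.20, limma adjusted p = 0.696).

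**Figure D2:**
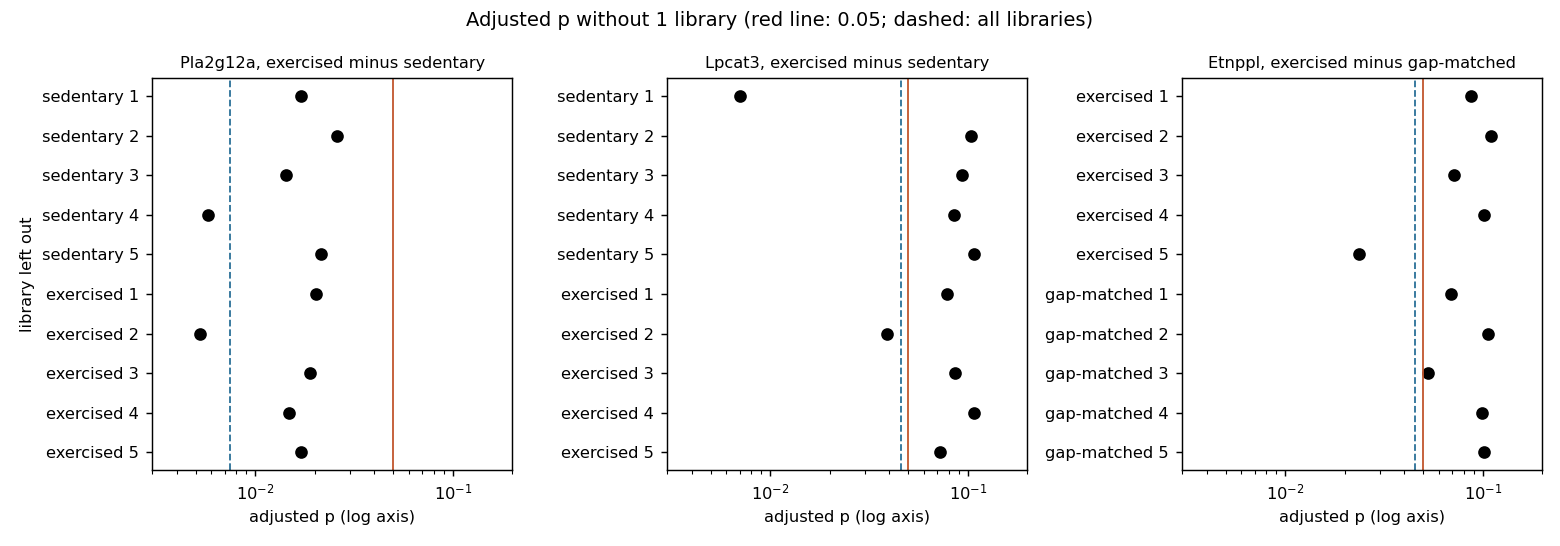
Adjusted p (log axis) of the 3 members that passed, with each library of the comparison left out in turn (points), beside the threshold of 0.05 (red line) and the value with all libraries (dashed). Pla2g12a stays below the threshold in all 10 fits, Lpcat3 in 2 and Etnppl in 1.

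The transferases that complete the Kennedy pathway did not pass. Chpt1, the cholinephosphotransferase, held 78.2, 70.3, 57.7, 65.4 and 63.2 FPKM in sedentary libraries 1 to 5, and 77.2, 69.2, 91.4, 82.6 and 90.0 FPKM in exercised libraries 1 to 5. In gap-matched libraries 1 to 5 it held 77.6, 88.7, 71.7, 90.3 and 88.4 FPKM. The highest 3 libraries of the exercised and of the gap-matched group lay above every sedentary library, and the rest overlapped. Chpt1 differed from sedentary by 0.29 ± 0.10 in exercised rats (limma adjusted p = 0.114) and by 0.31 ± 0.10 in gap-matched rats (0.116). Cept1, which serves both choline and ethanolamine, ran from 20.3 to 41.4 FPKM in sedentary, from 36.3 to 54.7 in exercised and from 35.1 to 51.2 in gap-matched libraries. It differed from sedentary by 0.47 ± 0.16 in exercised rats (limma adjusted p = 0.112) and by 0.38 ± 0.16 in gap-matched rats (0.238). Between exercised and gap-matched rats, Chpt1 differed by −0.02 (95% confidence interval −0.24 to 0.19) and Cept1 by 0.08 (−0.27 to 0.43).

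The choline kinases and the ethanolamine kinase of the list did not pass in any comparison. Chka ran from 6.59 to 11.4 FPKM in sedentary, from 6.77 to 9.70 in exercised and from 5.49 to 10.6 in gap-matched libraries. In the gap-matched group 4 libraries lay at or below 6.79 FPKM and library 3 alone reached 10.6. Chka differed by −0.05 between exercised and sedentary rats (95% confidence interval −0.39 to 0.28) and by −0.32 between gap-matched and sedentary rats (−0.66 to 0.01, limma adjusted p = 0.299). Between exercised and gap-matched rats it differed by 0.27 (−0.07 to 0.61, limma adjusted p = 0.415). Without gap-matched library 3, Chka differed by −0.47 in gap-matched minus sedentary (limma adjusted p = 0.07) and by 0.415 in exercised minus gap-matched (0.136). Chkb, the other choline kinase, had means of 14.1, 14.3 and 14.1 FPKM in sedentary, exercised and gap-matched livers, and its differences in the 3 comparisons lay within 0.03 of 0, with confidence intervals that reached 0.26 at most. Etnk2, an ethanolamine kinase, had means of 123, 130 and 140 FPKM in the same order. It was higher by 0.18 ± 0.10 in gap-matched than in sedentary rats without passing (limma adjusted p = 0.351).

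The cytidylyl-transferases, which set the pace of each branch, did not pass either. Pcyt1a, of the choline branch, had means of 19.7 ± 2.24, 18.1 ± 2.34 and 17.2 ± 1.58 FPKM in sedentary, exercised and gap-matched livers (SD, n = 5 each). It differed from sedentary by −0.12 in exercised rats (95% confidence interval −0.34 to 0.09) and by −0.18 in gap-matched rats (−0.40 to 0.03). Gap-matched library 3 lay within the sedentary range and the other 4 of its group below it. Pcyt2, of the ethanolamine branch, had means of 174, 163 and 170 FPKM. Its differences were −0.09 in exercised and −0.02 in gap-matched rats against sedentary, with confidence intervals of −0.24 to 0.06 and −0.18 to 0.13, the narrowest among the 10 genes.

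**Figure D3:**
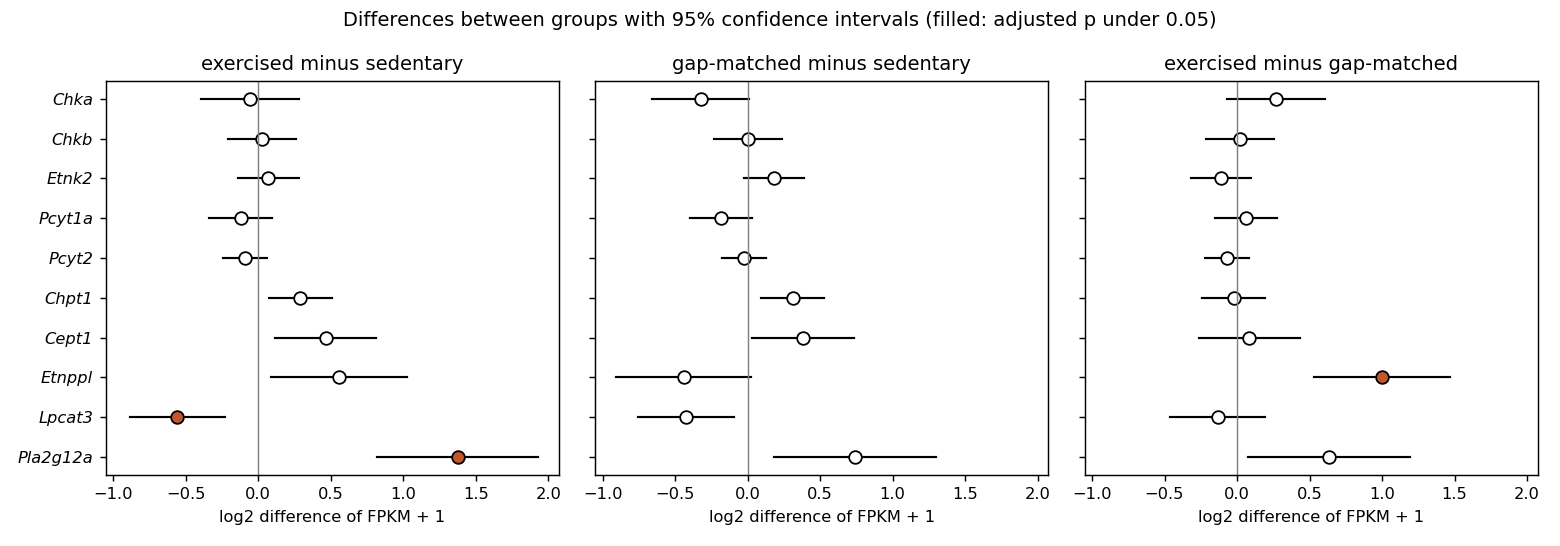
Differences of the 10 genes on the log2(FPKM + 1) scale (horizontal axes) in the 3 comparisons, with 95% confidence intervals, filled where the adjusted p was under 0.05. Pla2g12a and Lpcat3 are filled in exercised minus sedentary, 0 genes in gap-matched minus sedentary, and Etnppl in exercised minus gap-matched.

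The second comparison, of gap-matched with sedentary rats, addresses the refeeding diet without exercise. Of the 10 members 0 passed, where 3.05% of all tested genes did, 0.82% as higher and 2.23% as lower, with a members' median of −0.01 beside −0.03 over all tested genes. At an unadjusted limma p under 0.05 were Chpt1 (0.0077), Pla2g12a (0.0126), Lpcat3 (0.0149) and Cept1 (0.0342). Of all 11216 tested genes, 1996 were under that unadjusted threshold in this comparison. The 2 groups overlapped for each of the 10 genes, where 6.03% of all tested genes did not overlap.

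The third comparison set exercised rats against gap-matched rats, which differ in both exercise and diet. Here 1 of 10 members rose and 0 fell, where 0.9% of all tested genes passed, 0.687% as higher and 0.214% as lower, and the members' median was 0.04 beside 0.04 over all tested genes. The member was Etnppl, which breaks phosphoethanolamine down and so withdraws it from the ethanolamine branch. Exercised libraries 1 to 5 held 76.0, 117, 74.3, 73.0 and 48.3 FPKM and gap-matched libraries 31.5, 36.4, 45.4, 40.9 and 32.3 FPKM, whereas sedentary libraries held 53.3, 73.4, 62.9, 33.3 and 40.0 FPKM. The exercised libraries all lay above the gap-matched ones, which 3.32% of all tested genes matched in either direction, and the sedentary libraries overlapped both. Etnppl rose by 0.998 ± 0.221 in exercised against gap-matched rats (limma adjusted p = 0.0454). The call held without exercised library 5 (0.0237) and was lost without any other of the 10 libraries, at an adjusted p of 0.053 to 0.11, while the difference stayed between 0.84 and 1.15. Other settings ended it in 7 of 11 cases, at up to 0.0859 with no filter on low values. Against sedentary, Etnppl differed by 0.56 ± 0.22 in exercised rats (limma adjusted p = 0.155) and by −0.44 ± 0.22 in gap-matched rats (0.312), and neither passed.

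The wider phospholipid pathway was covered by 8 lists with 90 genes, of which 88 were in the table under that name or an older one and 76 were tested. Apart from the 10 members, 4 of 66 genes rose and 1 fell in exercised against sedentary rats, or 7.58% beside the 5.78% of all tested genes. In gap-matched against sedentary rats 1 of 66 fell, or 1.52% beside 3.05%. In exercised against gap-matched rats 3 of 66 rose, or 4.55% beside 0.9%. The median differences of the 66 genes were 0.02, −0.03 and 0.09 in this order. The lists were chosen with earlier results of these data known.

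In the Kennedy pathway list, Etnk1, the other ethanolamine kinase, was the gene that passed. Its means for sedentary, exercised and gap-matched livers were 14.7 ± 1.29, 20.0 ± 2.17 and 14.1 ± 2.34 FPKM (SD, n = 5 each). The exercised libraries, from 18.2 to 23.4 FPKM, lay above all others, of which gap-matched library 3 was the highest at 17.9. Etnk1 rose by 0.42 ± 0.11 against sedentary (limma adjusted p = 0.0302) and by 0.48 ± 0.11 against gap-matched rats (0.0451). The first call was lost without sedentary library 1, 3 or 5 or exercised library 3 or 4 (0.0524 to 0.0746). The second was lost without any of 8 of the 10 libraries (0.0569 to 0.13), and held when exercised library 5 or gap-matched library 3 was left out. Ept1, the ethanolamine-specific transferase, differed by 0.35 ± 0.10 between exercised and sedentary rats and did not pass (limma adjusted p = 0.0521). Pcyt1b, a second choline cytidylyl-transferase, was listed at 0 in all libraries.

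Among genes of head group supply and disposal, Gde1 is a glycerophosphodiester phosphodiesterase. Its means were 65.3 ± 9.90, 97.2 ± 10.1 and 83.9 ± 16.5 FPKM in sedentary, exercised and gap-matched livers. It rose by 0.57 ± 0.13 in exercised against sedentary rats (limma adjusted p = 0.0167) and passed in all 10 fits without 1 library. Bhmt uses betaine, the oxidation product of choline, as a methyl donor. Its means were 4257 ± 686, 2989 ± 1184 and 2174 ± 520 FPKM in sedentary, exercised and gap-matched livers. In exercised against sedentary rats it differed by −0.58 ± 0.23 without passing (limma adjusted p = 0.162). It fell by 0.99 ± 0.23 in gap-matched against sedentary rats (limma adjusted p = 0.0305). The call survived the omission of sedentary library 5 or of gap-matched library 3 but not of any other (0.0509 to 0.0829). Pemt, which methylates phosphatidylethanolamine to phosphatidylcholine in the liver, had means of 270 ± 26.3, 273 ± 36.1 and 307 ± 36.5 FPKM in sedentary, exercised and gap-matched livers and did not pass in any comparison. Chdh, which oxidises choline, did not pass either, with means of 205 ± 27.8, 177 ± 18.7 and 182 ± 18.2 FPKM.

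In the deacylation list, Pnpla7, a lysophospholipase, rose together with Pla2g12a in exercised against sedentary rats. Its exercised libraries held 59.0, 67.3, 46.4, 53.8 and 40.7 FPKM, all above the sedentary range of 25.3 to 39.7 and the gap-matched range of 27.4 to 37.2 FPKM. It rose by 0.72 ± 0.14 against sedentary (limma adjusted p = 0.00751), a call kept in all 10 fits without 1 library. It rose by 0.72 ± 0.14 against gap-matched rats (0.0288), a call lost without exercised library 1, 2 or 4 or gap-matched library 2, 4 or 5 (0.0612 to 0.0832). Between gap-matched and sedentary rats its difference was 0.01 ± 0.14. Abhd16a, a phosphatidylserine lipase, rose by 0.36 ± 0.08 in exercised against gap-matched rats (limma adjusted p = 0.0436), a call kept without exercised library 5 (0.0499) and lost without any other (0.0527 to 0.11). Of the 20 tested genes of this list, 2 rose in exercised against sedentary rats, the member Pla2g12a among them. In gap-matched against sedentary rats 0 passed, and 2 rose in exercised against gap-matched rats. Over all tested genes, 5.78%, 3.05% and 0.9% passed in this order.

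Of the 12 tested genes of the CDP-diacylglycerol and serine branches, 1 fell in exercised against sedentary rats, where 3.26% of all tested genes fell. The gene was Pgs1, which makes the precursor of phosphatidylglycerol and cardiolipin. Its means were 10.8 ± 1.33, 7.14 ± 1.25 and 8.46 ± 1.15 FPKM in sedentary, exercised and gap-matched livers. Pgs1 fell by 0.54 ± 0.12 in exercised against sedentary rats (limma adjusted p = 0.0153) and passed in all 10 fits without 1 library. Among 6 phosphatidate phosphatases, Ppap2a rose by 0.34 ± 0.10 (limma adjusted p = 0.0495), a call that held without sedentary library 4 and was lost without any other (0.0524 to 0.124). Lpcat3 was the gene that passed among 4 tested lysophospholipid acyltransferases. The 12 tested transport genes and the 2 tested plasmalogen genes did not pass in any comparison.

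**Figure D4:**
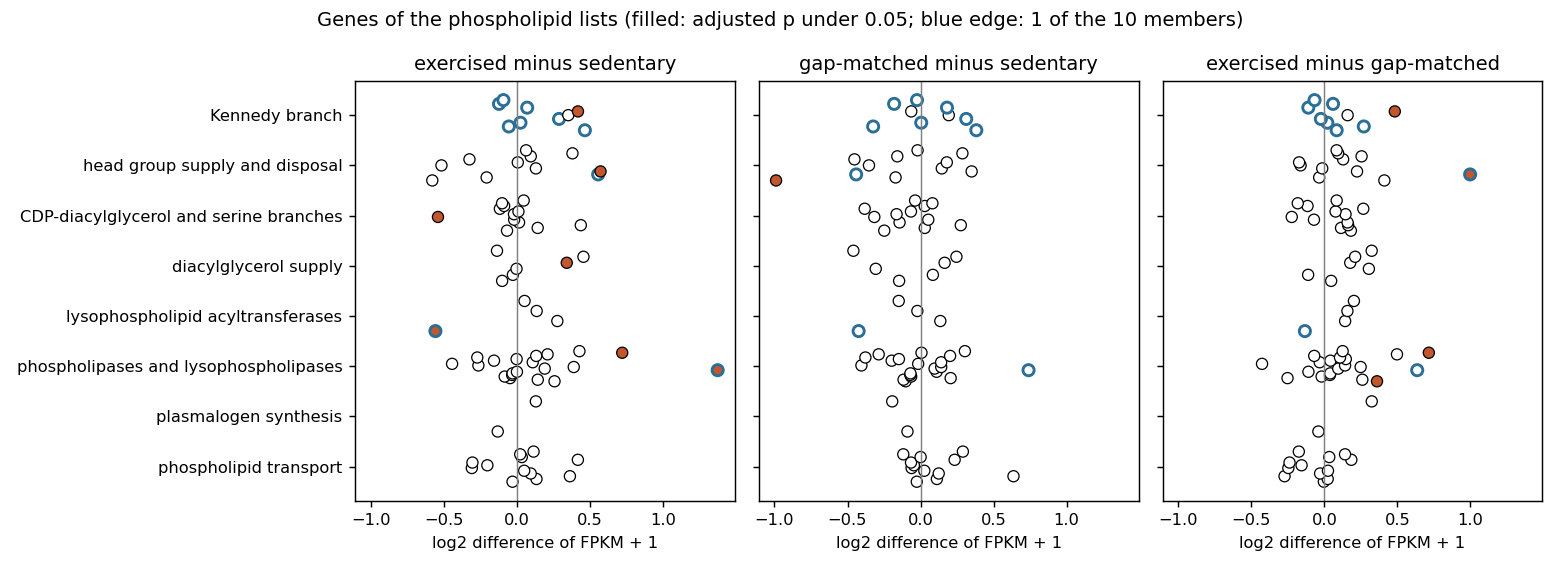
Differences on the log2(FPKM + 1) scale (horizontal axes) of the tested genes in each of the 8 lists, filled where the adjusted p was under 0.05 and edged in blue for the 10 members. Most genes lie near 0, with Pla2g12a farthest to the right in exercised minus sedentary and Bhmt farthest to the left in gap-matched minus sedentary.

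Within groups the members did not vary as 1 block. Deviations of log2(FPKM + 1) from the group mean were compared over the 15 libraries for the 45 pairs of members, and Pearson's r ran from −0.81 to 0.83 with a median of 0.09. These values are descriptions of extremes among 45, and each pair shares its libraries, depth and scaling. Pcyt1a and Etnppl had the highest r, 0.83 (Spearman's rho 0.85), and 0.79 without the 2 libraries in which Pcyt1a deviated most. Chkb and Cept1 had an r of 0.82 (rho 0.68), which was 0.66 without sedentary library 3, where both were at their lowest, and 0.52 without that library and exercised library 2. Chpt1 and Cept1 had an r of 0.67 (rho 0.61), and 0.57 without exercised library 2 and gap-matched library 3. Chkb and Chpt1 had an r of 0.56, which was 0.14 without sedentary library 3 and exercised library 2. Chpt1 and Lpcat3 had the lowest r, −0.81 (rho −0.84), and −0.76 without the 2 libraries in which Chpt1 deviated most. Chka ran with Lpcat3 (r = 0.62) and against Chpt1 (r = −0.65).

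**Figure D5:**
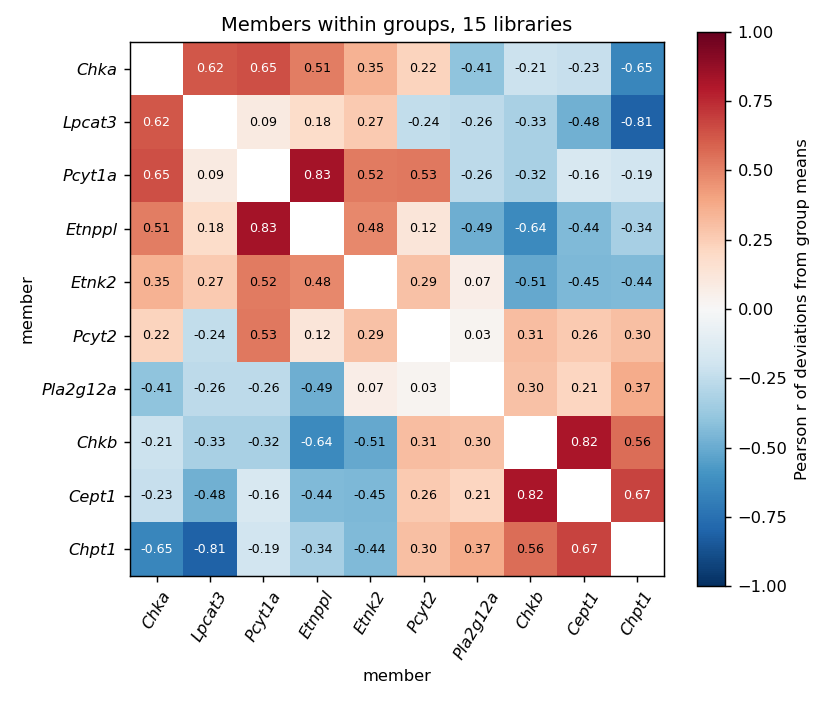
Pearson's r of deviations from the group means for each pair of members (both axes) over 15 libraries, red for positive and blue for negative. Cept1 is positive with Chkb and with Chpt1, and Chpt1 is negative with Lpcat3 and Chka.

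Over all 15 libraries, group differences included, the named tested gene most like Pla2g12a was Bnip3l, a mitophagy receptor (r = 0.91), and that most like Etnppl was Itpr1, an inositol trisphosphate receptor (r = 0.93). The gene most like Lpcat3 was Mmab, an enzyme of cobalamin metabolism (r = 0.87), and that most like Chpt1 was Tdo2, the tryptophan dioxygenase (r = 0.94). For the others these were Catsperg1 for Chka (0.93), Usp15 for Chkb (0.87), Rpp38 for Etnk2 (0.91), Ero1l for Pcyt1a (0.89), Spty2d1 for Pcyt2 (0.86) and Aamdc for Cept1 (0.90). Each is the highest among the tested genes and is given as a description.

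Among protein-coding genes on GRCr8, parts of Chpt1 overlap Gnptab and Sycp3, Cept1 overlaps Dram2, and Lpcat3 overlaps Emg1. Pla2g12a, Chkb and Pcyt1a overlap annotated lncRNA genes, 1 each for the former pair and 2 for Pcyt1a, for which no level is given here. Whether the counting used strand was not given in the sources used here, so fragments could be shared. The mean over the 15 libraries was 7.9 FPKM for Gnptab beside 77.5 for Chpt1, 39.4 for Dram2 beside 40.3 for Cept1, and 7.37 for Emg1 beside 62.3 for Lpcat3. Sycp3 was listed at 0.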

How the data were processed

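Per the labels, liver RNA was sequenced in 15 libraries from flash-frozen rat tissue, and columns were assigned to samples by the column name each label gives. The authors deposited FPKM for 26407 entries, and Trimmomatic, Cufflinks and build Rnor_5.0 are named in the submitters' processing notes. The aligner, filters and tool versions are not given in the sources used here. Entries that repeated an identifier (2) were dropped, as were Alb and Slc27a2, where 999999999 stood in place of values. Without read totals no counting interval can be given.

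The 3 groups were fitted together as log2(FPKM + 1) with limma 3.58.1 (mean trend, R 4.3.3) for genes whose mean reached 1 FPKM, with Benjamini-Hochberg adjustment over all tested genes and 2-sided tests. The fit was run on simulated data with independent noise for each gene and library. Those data lack shifts shared within a library, so the run does not bear on such shifts. Of the other pathway genes, up to 4 with the smallest p among those called in a list and comparison were to be named, and those named without passing were added after their values were seen. Members and lists were chosen with earlier results of these data known. Alternatives were another pseudocount, 2 filters, 3 scalings, other variance settings, library weights, 2-group fits, the replicate number as a block and leaving out each library. Replicate numbers did not pair the libraries. Promoters are from RefSeq (GRCr8) and matched by symbol. Figures and descriptions used Python 3.11.15, pandas 2.3.3 and scipy 1.17.1.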

Additional observations from a re-analysis of the deposited data

Results flagged for a closer look

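There were 30 sets of 5 libraries (10 genes in 3 groups). In 5 of them a library's gap to its nearest neighbour exceeded 0.71 of the range. For independent, normally distributed values, chance gives about 1 in 20 sets. The 30 sets share the same 15 libraries, and the share over all tested genes was not computed, so no excess can be read from this count. Lpcat3 was at 49.1 FPKM in sedentary library 1, far below the other 4. Pla2g12a was at 15.7 FPKM in gap-matched library 5, far above the other 4. Gap-matched library 3 was the highest of its group for both Chka, at 10.6 FPKM, and Pcyt1a, at 20.0 FPKM. Chkb was at 11.8 FPKM in exercised library 2, below the other 4 of its group.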

How the results depend on the processing

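Counts are of genes at an adjusted p under 0.05. In exercised against sedentary rats, the 2 members called became 1 with no filter, after scaling to the same sum, after quantile normalization, with no trend, with library weights, with only the 2 groups compared and with the replicate block, and the 7 pathway genes became 11 after median-of-ratios scaling and 4 with the replicate block. In gap-matched against sedentary rats, the 1 pathway gene became 0 with no filter and after quantile normalization, and the 342 of all genes became 201 with the replicate block. In exercised against gap-matched rats, the 1 member became 0 with no filter, under each of the 3 scalings, with no trend, with library weights and with only the 2 groups compared. There, the 4 pathway genes became 1 with no filter or no trend, 0 after scaling to the same sum or with only the 2 groups compared, and 2 with library weights or the replicate block. The 101 of all genes became 53 with no filter, 34 after scaling to the same sum, 20 with the replicate block and 16 with only the 2 groups compared. The cause was not tested.

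Leaving out 1 library gave 1 to 2 members, 4 to 9 pathway genes and 342 to 642 of all genes (648 with all libraries) in the first comparison. It gave 0 to 1 members, 0 to 1 pathway genes and 147 to 357 of all genes in the second, and 0 to 1, 0 to 5 and 18 to 131 in the third. Lower genes made up 56.5%, 73.1% and 23.8% of all calls in the 3 comparisons, but 66.1%, 83.9% and 17.6% after scaling to the same sum and 54%, 58.9% and 40.7% after median-of-ratios scaling.

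Signs changed only for members that had not passed, and 18 of 819 refitted gene values did so. Chkb turned to −0.0628 (same sum) and −0.0143 (library weights) in gap-matched minus sedentary, and to −0.0265 (median of ratios) and −0.00432 (quantile) in exercised minus gap-matched. Chpt1 turned to 0.0233 (same sum) in the latter, and Pcyt2 to 0.0218 (median of ratios) in gap-matched minus sedentary. Without 1 library, Chkb ran from −0.0742 to 0.0882, −0.0948 to 0.055 and −0.00666 to 0.0837 in the 3 comparisons, Chka from −0.143 to 0.0335 in the first, Pcyt2 from −0.0566 to 0.00119 in the second and Chpt1 from −0.0754 to 0.0352 in the third. Same-numbered libraries did not deviate together, as their correlations ran from −0.27 to 0.19 and 2 of 15 were above 0.1. With the number as a block, Lpcat3 lost its call in exercised against sedentary rats (limma adjusted p = 0.0894), and Pla2g12a, in the same comparison, and Etnppl kept theirs. Differences of low genes such as Pla2g12a rest on fewer fragments than those of Pcyt2, by an amount the deposited values do not give.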
